A study of Mus musculus with 18 samples.

Results

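Prtn3, Elane, Mpo and Ctsg encode proteins of the azurophil (primary) granules of neutrophils, and their transcripts were followed in 18 mouse livers. The 4 genes were taken by symbol from the 24394 genes of the count table. They were chosen by their CPM and counts across the groups of these same libraries, and with them the relation of Prtn3 to Saa1 and Lcn2, so the levels of the 4 genes are given as a description and without a test. RNA was read by 3′ tag sequencing, in which each polyadenylated transcript gives reads near its 3′ end. The livers fall into 3 groups of 6: control wild-type (WT) mice, tumour-bearing WT mice, and tumour-bearing mice of genotype Alb-Cre+/+ STAT3f/f, called Stat3-deleted here. In the last group Cre is under the albumin promoter, active in hepatocytes, where the floxed part of Stat3 is meant to be cut out. Which liver cells lost or kept the gene was not measured here. The labels list the tumour line PDA.69, a T-cell-low pancreatic ductal adenocarcinoma line derived from KPC mice, for all 3 groups, the controls included. They name no age, sex, implantation site or time, and no group holds Stat3-deleted livers without a tumour.

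Proteinase 3 (Prtn3), neutrophil elastase (Elane) and cathepsin G (Ctsg) are serine proteases, and myeloperoxidase (Mpo) makes hypochlorous acid. These proteins are packed into azurophil granules at the promyelocyte stage in bone marrow, and their transcription is largely shut off in the neutrophils that leave the marrow. The proteases are activated by cathepsin C and are held in check by serpins of plasma and cytosol. In a whole liver, fewer cells of a type and less RNA per cell cannot be told apart.

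Total counts per library ran from 5212265 to 9545442. CPM below are counts scaled to a common library total, with library sizes adjusted by TMM. In libraries of this depth 1 count equals 0.110 to 0.173 CPM. The summed CPM of 8 hepatocyte markers, led by Alb, ran from 53108 to 82978.5 over the controls and from 58815 to 122312 over tumour-bearing WT livers. Over Stat3-deleted livers it ran from 91720 to 106578, above every control. Alb, Ttr and Apoa1 made up most of this sum, and the markers did not all move the same way. In Stat3-deleted against control livers 6 of the 8 had a log2 fold change above 0. In edgeR's quasi-likelihood test 1 passed as higher, Ttr (0.66, adjusted p = 0.0271), and 1 as lower, Apob (−1.25, adjusted p = 0.0124), where 4.85% of all genes passed. Stat3 tags stood at 112 ± 19.1 CPM in the controls (mean ± SD of 6 livers, as for all group means below), at 213 ± 38.3 in tumour-bearing WT livers and, in Stat3-deleted livers, at 118 ± 12.8, but these tags come from the 3′ end and do not check whether the floxed exons were removed. Numbers in the labels fall into a lower run (replicates 1 to 3) and a higher run (replicates 4 to 6) in both WT groups. The numbers of the Stat3-deleted livers lie in neither run, so that for this group the run and the genotype cannot be told apart.

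Prtn3 and Elane are neighbours on mouse chromosome 10, yet their levels differed widely here, and their promoters are shown for that reason. Each line runs 5′ to 3′ on the plus strand from 250 bases before the annotated start to 49 bases after it, as given by RefSeq for GRCm38.p6, which mm10 is built on. The regions are chr10:79879417-79879716 for Prtn3 and chr10:79886062-79886361 for Elane, and capitals mark AGGAAGT, then CAACGG, then TATAA.
Prtn3: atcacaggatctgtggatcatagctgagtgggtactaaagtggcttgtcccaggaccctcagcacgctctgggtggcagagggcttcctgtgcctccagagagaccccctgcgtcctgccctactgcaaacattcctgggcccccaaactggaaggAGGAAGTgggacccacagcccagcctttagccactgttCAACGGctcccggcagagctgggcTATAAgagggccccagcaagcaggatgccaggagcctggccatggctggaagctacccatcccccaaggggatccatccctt
Elane: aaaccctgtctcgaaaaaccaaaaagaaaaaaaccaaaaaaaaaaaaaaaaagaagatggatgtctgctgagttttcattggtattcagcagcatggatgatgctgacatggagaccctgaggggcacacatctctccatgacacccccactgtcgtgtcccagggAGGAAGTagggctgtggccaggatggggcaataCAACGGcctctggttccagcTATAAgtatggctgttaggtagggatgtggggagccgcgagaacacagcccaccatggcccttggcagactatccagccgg

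Both promoters hold the same 3 words in the same order. AGGAAGT, a word bound by the myeloid factor PU.1, begins 94 bases before the annotated start of Prtn3 and 84 bases before that of Elane. It was also found in the promoters of Mpo and Ctsg, and in 9.35% of 32851 mouse promoters of this length when both strands were searched. CAACGG, a word of the MYB family, was found in Prtn3 and Elane and in 5.12% of promoters on either strand. TATAA on the forward strand begins 32 and 31 bases before the starts of Prtn3 and Elane, and 17.5% of promoters hold it. TTCNNNGAA, a word for STAT factors, was found among the members in the Ctsg promoter, and in 8.30% of promoters. TTGCNNAA, a word for C/EBP factors, was found in those of Saa1 and Lcn2 and in none of the 4 members, against 10.8% of promoters. TGTGGT, a RUNX word searched on both strands, was found among the members in Ctsg, and in 16.8% of promoters. A match only says that these letters are present in this window.

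Prtn3 (gene ID 19152, chr10:79879667-79883174) was near the detection limit in control livers and readily counted in tumour-bearing WT livers. The controls, in replicate order, held 1, 6, 9, 0, 4 and 7 Prtn3 counts, a mean of 0.678 ± 0.574 CPM. The tumour-bearing WT livers held 363, 408, 1178, 865, 540 and 514 counts, or 56.1, 53.8, 142, 114, 69.2 and 77.8 CPM, with a mean of 85.4 ± 35.1. The Stat3-deleted livers held 5, 6, 10, 9, 8 and 10 counts, a mean of 0.974 ± 0.246 CPM. Every tumour-bearing WT liver stood above every liver of the other groups, and the control and Stat3-deleted ranges overlapped. Among the 24394 genes ordered by mean CPM, Prtn3 was number 11824 in control, 1506 in tumour-bearing WT livers and number 11191 in Stat3-deleted livers.

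The mean of Prtn3 was 126-fold higher in tumour-bearing WT than in control livers, a fitted log2 fold change of 6.99 (SE 0.39). In Stat3-deleted against tumour-bearing WT livers the mean was 87.6-fold lower, a log2 fold change of −6.43 (SE 0.36). Both differences share the tumour-bearing WT livers. Between Stat3-deleted and control livers the log2 fold change was 0.57 (SE 0.50). Within the lower label-number run the first of these differences was 6.65 (SE 0.54) and within the higher run 7.37 (SE 0.58), each with 3 livers against 3. Among the 11218 genes that passed the filter on low counts, the size of the log2 fold change ranked Prtn3 number 3 in the first comparison and number 7 in the second. In the first comparison 1.05% of these genes were higher with no overlap of the groups, and in the second 1.9% were lower with no overlap.

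**Figure D1:**
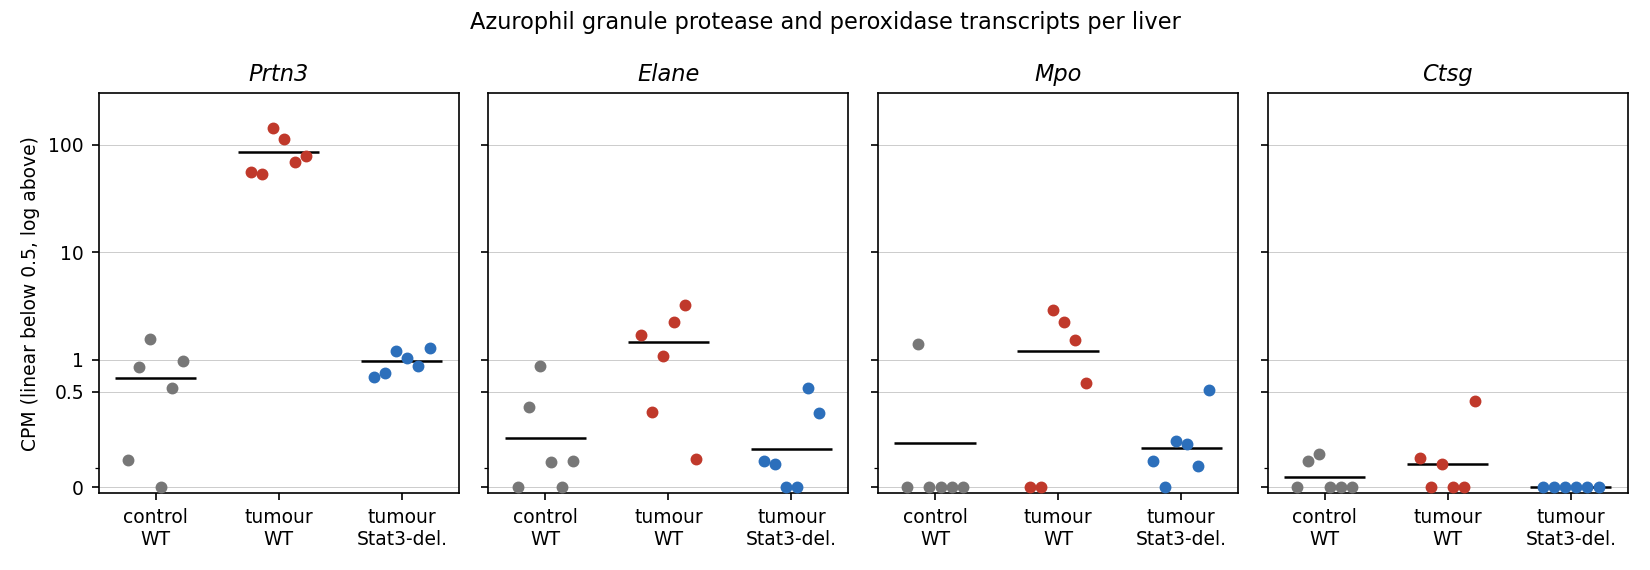
CPM of Prtn3, Elane, Mpo and Ctsg (y axis, linear below 0.5 and logarithmic above) in the 6 livers of each group, with horizontal lines at the group means. Prtn3 runs from 53.8 to 142 CPM in tumour-bearing WT livers and up to 1.56 CPM in the other groups, while no liver exceeds 3.20 CPM for the other 3 genes.

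Elane (gene ID 50701, chr10:79886312-79888216) starts 3138 bases past the end of Prtn3. Its counts were 0, 3, 5, 1, 0 and 1 in control, 11, 3, 9, 17, 25 and 1 in tumour-bearing WT livers, and those of the Stat3-deleted livers were 1, 1, 0, 0, 5 and 3. The means were 0.260 ± 0.334, 1.46 ± 1.16 and 0.200 ± 0.222 CPM, so that tumour-bearing WT livers had 5.61-fold more than controls and 7.31-fold more than Stat3-deleted livers. On the log2 scale the first ratio, 2.49, ran from 2.10 (tumour-bearing WT replicate 5 left out) to 3.39 (control replicate 3 left out). The second, −2.87 as Stat3-deleted against tumour-bearing WT, ran from −3.49 (Stat3-deleted replicate 5 left out) to −2.48 (tumour-bearing WT replicate 5 left out). All 3 groups overlapped, because tumour-bearing WT replicates 2 and 6 held 3 counts and 1 count. The order of the livers also differed: Prtn3 was highest in tumour-bearing WT replicate 3 and Elane in replicate 5.

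Mpo (gene ID 17523, chr11:87793784-87804412) was detected in 4 of 6 tumour-bearing WT livers, with 0, 0, 24, 17, 12 and 4 counts. In control livers all 10 counts came from replicate 2, and Stat3-deleted livers held 1, 0, 2, 2, 1 and 4. The means were 0.235 ± 0.576 in control, 1.21 ± 1.21 in tumour-bearing WT and 0.206 ± 0.176 CPM in Stat3-deleted livers, ratios of 5.15 and 5.89 with overlapping groups. Without control replicate 2 the controls held no Mpo count. Mpo overlaps the annotated gene Gm34064, and whether the counting used strand was not given in the sources used here, which leaves reads of the pair inseparable. Mpo lies 13.1 Mb from Stat3, so sequence linked to the floxed allele and loss of Stat3 cannot be told apart as a source of its difference.

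Ctsg (gene ID 13035, chr14:56099885-56102574) was at the detection limit throughout. It had 2 counts over the 6 control livers, 5 over the tumour-bearing WT livers, 3 of them in replicate 6, and 0 over the Stat3-deleted livers. A count of 0 over that group allows a level of up to 0.0610 CPM, which is 3 counts over its libraries. No difference in Ctsg was detectable at this depth. These limits cover counting error only.

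Of the 4 members 1, Prtn3, passed the filter on low counts, and it passed through the group in which it is high. Elane, Mpo and Ctsg were too low for the fit.

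Since a 3′ tag count does not grow with transcript length, counts of different genes were set against each other within a liver without dividing by length. Summed over the group, there were 2.7 Prtn3 counts per Elane count in control, 58.6 in tumour-bearing WT livers and 4.8 in those with Stat3 deleted, or 8 with Stat3-deleted replicate 5 left out. Liver by liver the ratio ran from 21.6 to 514 in the 6 tumour-bearing WT livers, and it was at most 7 in the 4 control and 6 in the 4 Stat3-deleted livers that held an Elane count. Against S100a9, a calcium-binding protein abundant in mature neutrophils, Prtn3 had 0.0486 counts per count in control, 1.07 in tumour-bearing WT livers and 0.0392 in those with Stat3 deleted. The per-liver ratios were 0 to 0.0833, 0.761 to 1.97 and 0.0192 to 0.0741. Among livers with a count of the other gene, the tumour-bearing WT livers stood apart from both other groups in Prtn3 per Elane and per S100a9 count. Control replicates 1 and 5 and Stat3-deleted replicates 3 and 4 held no Elane count and have no such ratio. Prtn3 and Elane were chosen by their counts across these groups, so this is a description only.

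Acute-phase genes gave other ratios. Per count of Lcn2, which encodes a siderophore-binding protein made by both hepatocytes and neutrophils, there were 0.0978, 0.210 and 0.314 Prtn3 counts in the 3 groups in the same order. The per-liver ratios of 0 to 0.149, 0.104 to 0.548 and 0.141 to 1.67 overlapped. Per count of Saa1, an acute-phase apolipoprotein, the summed ratios were 0.00262, 0.00473 and 0.0219, and the per-liver ratios ran from 0 to 0.00633, from 0.00234 to 0.00979 and from 0.00643 to 0.120. In the Stat3-deleted group 5 of the 6 livers, at 0.0388 to 0.120, lay above every liver of the other groups. The exception, replicate 4 at 0.00643, held 1399 of the 2189 Saa1 counts of its group (161 CPM), and with it left out the summed ratio was 0.0494. Saa1 itself was at 246 ± 168, 18290 ± 15943 and 42.9 ± 58.0 CPM in the 3 groups. In Stat3-deleted against control livers Saa1 fell by 2.52 (SE 0.62, adjusted p = 0.0235), while Prtn3 was at 0.974 against 0.678 CPM. Lcn2 was at 3.01 ± 2.32 CPM in Stat3-deleted and 6.77 ± 3.53 CPM in control livers.

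**Figure D2:**
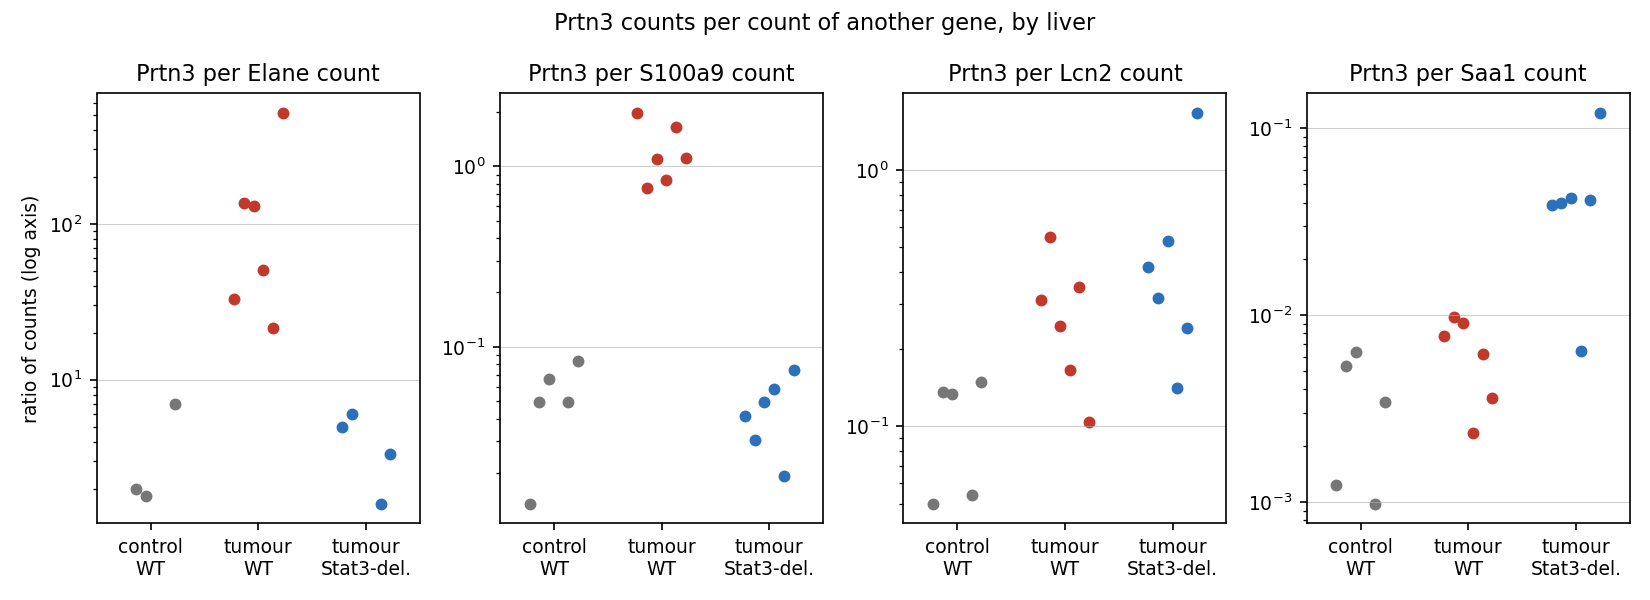
Prtn3 counts per count of Elane, S100a9, Lcn2 and Saa1 in each liver (logarithmic y axes), by group. Livers without a count of Prtn3 or of the other gene are not drawn. The tumour-bearing WT livers lie above both other groups in the panels of Elane (21.6 to 514) and S100a9 (0.761 to 1.97), the groups overlap in that of Lcn2, and in that of Saa1 5 of 6 Stat3-deleted livers (0.0388 to 0.120) lie above all others.

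Among other contents of azurophil granules no call was made. Of 7 tested genes of this list (Lyz2, Srgn, Cd63, Gusb, Man2b1, Npc2 and Ctsd), 0 passed edgeR's quasi-likelihood test in tumour-bearing WT against control livers, where 2.25% of all tested genes passed. An unadjusted p under 0.05 was reached by 3 of them, and DESeq2 called 0. Their median log2 fold change was 0.23, or 0.030 with library totals alone, against 0.0038 over all genes. Lyz2, lysozyme of myeloid cells, was at 0.82 on the log2 scale (SE 0.30, adjusted p = 0.174), and Srgn, the proteoglycan that holds granule proteases, 0.66 (SE 0.24, adjusted p = 0.172). Against tumour-bearing WT, in the Stat3-deleted livers, where 6.12% of all genes passed, 0 of 7 did in edgeR and DESeq2, 0 had an unadjusted p under 0.05, and the median was −0.12. Several of these genes are lysosomal and are expressed in most liver cells. Of the low members of the list, Bpi was listed at 0 in all libraries and Prss57, a serine protease of the same granules, held 2 counts in all, both in controls.

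Genes of granulocyte progenitors, the stage at which azurophil proteins are transcribed, were low. Of 4 tested genes (Kit, Cd34, Clec12a and Cebpe), 0 passed in edgeR or DESeq2 in the first comparison, with 2 at an unadjusted p under 0.05, and 0 passed in the second, with 0 at an unadjusted p under 0.05. The medians of the 4 were 0.56 and −0.43, and of all genes 2.25% and 6.12% passed in edgeR. Kit, a stem cell factor receptor also found on mast cells, was at 0.86 (SE 0.28, adjusted p = 0.119) in the first. Ms4a3, a marker of committed granulocyte and monocyte progenitors, held 2, 4 and 0 counts over control, tumour-bearing WT and Stat3-deleted livers, and Fcnb, a ficolin of maturing granulocytes, held 0, 3 and 0. The summed CPM of all 9 progenitor genes ran from 19.2 to 33.7 over the controls, 23.0 to 40.4 over tumour-bearing WT and 16.7 to 31.1 over Stat3-deleted livers, with overlapping ranges. Cebpe, Clec12a, Kit and Cd34 made up most of this sum, so it says little about the other genes of the list. Between Stat3-deleted and control livers 1 of the 4, Cebpe, was lower in edgeR (−0.82, SE 0.23, adjusted p = 0.0416), where 4.85% of all genes passed.

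Contents of specific granules, made at a later stage of maturation, were higher in tumour-bearing WT livers. Of 6 tested genes 4 rose against control, where 1.76% of all genes did: Lcn2, Hp, Slpi and Ngp. Lcn2 rose by 5.94 (SE 0.54, adjusted p = 4.73e-07), from 6.77 ± 3.53 to 414 ± 287 CPM, and Hp, the haemoglobin-binding plasma protein haptoglobin, rose by 1.81 (SE 0.27, adjusted p = 0.000314), from 3581 ± 1198 to 12513 ± 5518 CPM. Both genes are also hepatocyte acute-phase genes. Slpi, an inhibitor of elastase and cathepsin G, rose by 2.05 (SE 0.43, adjusted p = 0.0092). Ngp, a granule protein of the neutrophil lineage, held 10 counts in control and 150 in tumour-bearing WT livers and rose by 3.69 (SE 0.81, adjusted p = 0.0141). Its log2 fold change was 4.98 with control replicate 2 left out and 3.09 with tumour-bearing WT replicate 3 left out, where it no longer passed (adjusted p = 0.0608). In the list the median was 1.93, and DESeq2 called Cyba as well (adjusted p = 0.0266). Of the 7 members too low for the fit, Olfm4 held no count in any group and the other 6 held most counts in tumour-bearing WT livers. Summed over control, tumour-bearing WT and Stat3-deleted livers, Ltf, which encodes lactoferrin, held 2, 38 and 5 counts, Camp, the cathelicidin, 9, 109 and 23, Chil3, a chitinase-like protein, 5, 99 and 27, Mmp8, a collagenase, 12, 53 and 22, Pglyrp1, a peptidoglycan-binding protein, 6, 36 and 21, and Cd177 0, 3 and 0. In Stat3-deleted against tumour-bearing WT livers 2 of 6 fell, where 3.23% of all genes did: Lcn2 by 7.08 (SE 0.58, adjusted p = 4.15e-08) and Hp by 1.80 (SE 0.27, adjusted p = 0.000176). Slpi was at −0.63 (SE 0.41, adjusted p = 0.418) and Ngp at −1.46 (SE 0.65, adjusted p = 0.215), or −0.86 with tumour-bearing WT replicate 3 left out.

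Mature neutrophil genes were also higher in tumour-bearing WT livers, by less than Prtn3. Of 10 tested genes 4 rose against control, where 1.76% of all genes did: S100a8, S100a9, Retnlg and Alox5ap. The list median was 0.78. S100a9 rose by 2.54 (SE 0.35, adjusted p = 0.000141). S100a8 rose by 2.67 (SE 0.38, adjusted p = 0.000197), from 14.2 ± 5.83 to 90.2 ± 60.2 CPM, and Retnlg, a resistin-like protein of mouse neutrophils, from 1.48 ± 0.734 to 5.68 ± 2.25 CPM (by 1.93, SE 0.40, adjusted p = 0.00803). Alox5ap, which serves leukotriene synthesis, rose by 1.03 (SE 0.27, adjusted p = 0.0417). In Stat3-deleted against tumour-bearing WT livers 4 of 10 fell, where 3.23% of all genes did, with a list median of −0.54. They were S100a8 (−1.64, SE 0.37, adjusted p = 0.00764), S100a9 (−1.70, SE 0.34, adjusted p = 0.003), Retnlg (−1.62, SE 0.38, adjusted p = 0.0116) and Mmp9, the gelatinase of tertiary granules (−1.45, SE 0.42, adjusted p = 0.0426). Other neutrophil genes, such as the integrin chain Itgam and the formyl peptide receptor Fpr1, did not pass in either comparison.

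Alox5ap no longer passed when any of these was left out: control 1, 2, 3, 4 or 6, tumour-bearing WT 3 or 4, Stat3-deleted 1, 2 or 3 (adjusted p 0.0507 to 0.157), with library totals alone (0.0832) or with the WT groups fitted alone (0.0937). The same held for Mmp9 with control 1, tumour-bearing WT 3 or 4, and Stat3-deleted 1, 2, 4, 5 or 6 (adjusted p 0.0503 to 0.167), with library totals alone (0.0553) or with the groups of that comparison fitted alone (0.0635). Between tumour-bearing WT and control livers Mmp9 did pass in DESeq2 (adjusted p = 0.0128) and with tumour-bearing WT 1, 5 or 6 left out (0.0206 to 0.0499). Within the label-number runs, 3 livers against 3, S100a8 was at 2.06 (adjusted p = 0.0763) in the lower and 3.31 (adjusted p = 0.0152) in the higher run, and S100a9 at 2.17 (adjusted p = 0.0704) and 2.99 (adjusted p = 0.0137).

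The summed CPM of 15 mature neutrophil genes ran from 41.8 to 85.4 over the controls, 96.1 to 408 over tumour-bearing WT and 65.9 to 155 over Stat3-deleted livers, with Mmp25 at 0 in control and Stat3-deleted livers. Between Stat3-deleted and control livers, where 4.85% of all genes passed, 0 of 10 did in edgeR and DESeq2 (3 had an unadjusted p under 0.05), with S100a8 at 1.04 (SE 0.37, adjusted p = 0.109). With these groups fitted alone S100a8 did pass (1.04, adjusted p = 0.0372). The summed level of these genes was thus higher in tumour-bearing WT than in control livers without overlap, as was Prtn3. The part of neutrophil number in the Prtn3 difference was not tested.

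**Figure D3:**
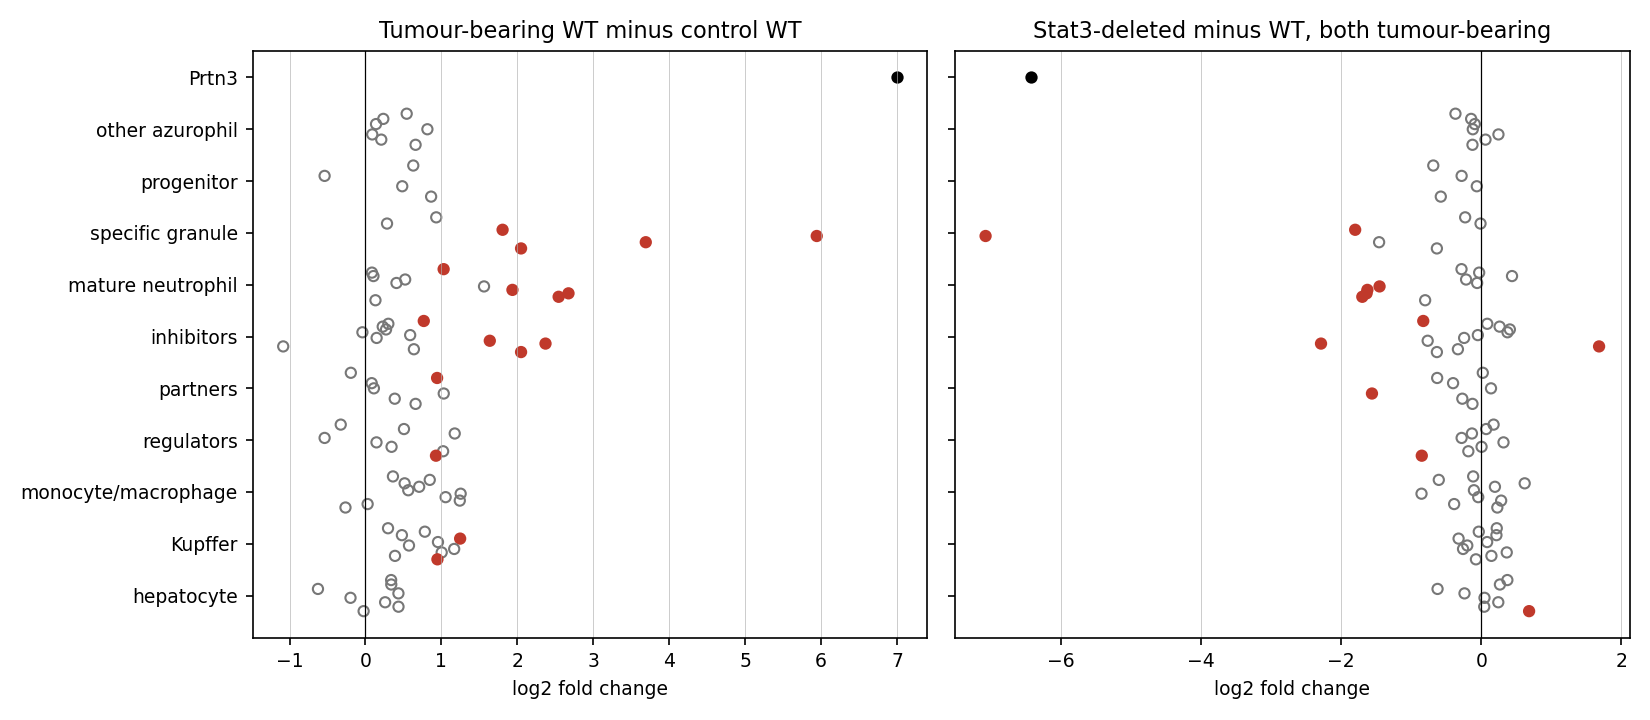
Log2 fold change (x axes) of Prtn3 (black) and of the tested genes of 10 lists (rows) in tumour-bearing WT against control (left) and Stat3-deleted against tumour-bearing WT livers (right). Red marks an adjusted p under 0.05 in edgeR, and open points did not pass. Prtn3 lies at 6.99 and −6.43, and among the list genes Lcn2 (5.94 and −7.08) lies nearest to it.

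Genes that process, inhibit or receive the signals of these proteases moved in part. Of 7 tested partner genes 1 rose in tumour-bearing WT livers, where 1.76% of all genes did. Ctsc, the cathepsin that activates Prtn3, Elane and Ctsg, went from 86.2 ± 34.8 to 166 ± 35.5 CPM (by 0.94, SE 0.21, adjusted p = 0.0185). It no longer passed with control replicate 4 left out (adjusted p = 0.0530), with tumour-bearing WT replicate 3 left out (0.0606), with library totals alone (0.0750) or with the WT groups fitted alone (0.0728). In Stat3-deleted livers Ctsc was at 107 ± 9.82 CPM, −0.63 against tumour-bearing WT (SE 0.21, adjusted p = 0.0880, or 0.0223 with the groups compared fitted alone, and 0.0332 with control replicate 6 and 0.0337 with tumour-bearing WT replicate 5 left out). In that comparison, where 3.23% of all genes fell, Il1b was the 1 partner gene of 7 that fell (−1.56, SE 0.42, adjusted p = 0.0263). It encodes a cytokine that proteinase 3 can process. Il1b no longer passed with tumour-bearing WT 3 (0.0755) or 4 (0.0811), or with Stat3-deleted 1 (0.0638) or 4 (0.0600), left out.

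Of 12 tested inhibitors of neutrophil serine proteases 4 rose in tumour-bearing WT livers, where 1.76% of all genes did: Serpina3n, Serpina3m, Slpi and Pzp. Serpina3n, an acute-phase serpin, rose by 2.37 (SE 0.33, adjusted p = 0.000152), from 282 ± 55.6 to 1458 ± 1046 CPM, and the paralog Serpina3m from 249 ± 63.5 to 774 ± 404 CPM (by 1.64, SE 0.27, adjusted p = 0.000901). The genes Serpina1a to Serpina1e, which encode alpha-1-antitrypsin, the main plasma inhibitor of elastase and proteinase 3, were abundant and did not pass, with Serpina1e highest at 14078 ± 6322 CPM and 0.59 on the log2 scale (SE 0.26, adjusted p = 0.271). Paralogs within the Serpina1 and within the Serpina3 family are similar in sequence, and the counting could split reads among them. Pzp, a broad-spectrum macroglobulin inhibitor, rose by 0.77 (SE 0.19, adjusted p = 0.0278), a call lost when control 3, 4, 5 or 6 or tumour-bearing WT 3, 4 or 6 was left out (adjusted p 0.0548 to 0.0873), with library totals alone (0.0885) or with the WT groups fitted alone (0.105). In the lower label-number run, 3 livers against 3, Serpina3m was at 1.00 (adjusted p = 0.328).

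In Stat3-deleted against tumour-bearing WT livers 2 of the 12 inhibitors fell and 1 rose, where 3.23% of all genes fell and 2.89% rose. Serpina3n fell by 2.29 (SE 0.33, adjusted p = 0.000101) and Pzp by 0.83 (SE 0.19, adjusted p = 0.00831). Serpinb1a, a cytosolic inhibitor of neutrophil serine proteases, rose from 5.15 ± 1.95 to 16.6 ± 10.5 CPM (by 1.68, SE 0.42, adjusted p = 0.0177), a call lost without Stat3-deleted replicate 6 (adjusted p = 0.0601).

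Of 8 tested transcription factors of granulocyte genes 1, Stat3, rose in tumour-bearing WT livers (0.93, SE 0.14, adjusted p = 0.000302) and fell in Stat3-deleted livers (−0.85, SE 0.14, adjusted p = 0.00043). Of all genes 1.76% rose in the first of these comparisons and 3.23% fell in the second. Stat3 is the gene targeted in the Stat3-deleted group, so its value there is no independent result about this list. Cebpd (1.18, SE 0.32, adjusted p = 0.0506) and Spi1, which encodes PU.1 (1.02, SE 0.35, adjusted p = 0.137), did not pass in the first comparison. Cebpd did pass in DESeq2 (adjusted p = 0.00916) and with tumour-bearing WT replicate 5 left out (0.00596), and Spi1 with control replicate 3 left out (0.0454). Cebpe, a factor of terminal granulocyte maturation, was at −0.54 (SE 0.23, adjusted p = 0.240). Myb held 6, 16 and 2 counts and Gfi1, a repressor active in granulocyte progenitors, 1, 5 and 1 over control, tumour-bearing WT and Stat3-deleted livers.

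Markers of other cells gave the following values beside Prtn3. Of 10 monocyte and macrophage markers 0 passed in edgeR in tumour-bearing WT against control livers, where 2.25% of all genes did. An unadjusted p under 0.05 was reached by 5 of them, and DESeq2 called 1. Csf1r, the receptor of macrophage colony-stimulating factor, was at 0.71 (SE 0.31, adjusted p = 0.252). Their median was 0.63, with 9 of 10 above 0. Of 10 Kupffer cell markers 2 rose, where 1.76% of all genes did: Vsig4 (0.95, SE 0.22, adjusted p = 0.0237) and Cd163 (1.25, SE 0.29, adjusted p = 0.0237). All 10 Kupffer cell markers were above 0, 8 had an unadjusted p under 0.05, DESeq2 called 4, and the median was 0.86, against 0.78 for the mature neutrophil genes. Vsig4 no longer passed with control 1, 4 or 6 or tumour-bearing WT 3 or 4 left out (0.0575 to 0.0810) or with library totals alone (0.0682), nor Cd163 with control 2, 4 or 6 or tumour-bearing WT 3 or 4 left out (0.0550 to 0.0946). In Stat3-deleted against tumour-bearing WT livers 6.12% of all genes passed in edgeR. Of the markers 0 of 10 macrophage and 0 of 10 Kupffer cell genes passed in edgeR or DESeq2, with 2 and 0 at an unadjusted p under 0.05. The summed CPM of the Kupffer cell markers ran from 427 to 1068 over the controls, 761 to 1829 over tumour-bearing WT and 747 to 1936 over Stat3-deleted livers, and that of the macrophage markers from 138 to 360, 235 to 490 and 210 to 593. The part of macrophages and Kupffer cells in the Prtn3 difference was not tested.

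Serine proteases that other leukocytes store in granules were few. Of 13 such genes, granzymes of lymphocytes, mast cell and basophil proteases and the neighbour Cfd, 2 passed the filter on low counts, Gzma and Cfd, and 0 of these passed in any comparison in edgeR or DESeq2, with 0 at an unadjusted p under 0.05. Gzma, granzyme A of killer lymphocytes, held 111, 111 and 89 counts over the control, tumour-bearing WT and Stat3-deleted livers. Cma1, the mast cell chymase, held 0, 8 and 4 counts and Mcpt8, a basophil protease, 0, 7 and 3. Tpsb2, a mast cell tryptase, went the other way, with 10, 4 and 4. None of the 3 groups held a count of Mcpt1 or Tpsab1. The summed CPM of 9 mast cell and basophil markers ran from 7.61 to 14.5 over the controls, 14.4 to 26.8 over tumour-bearing WT and 11.2 to 21.9 over Stat3-deleted livers, with Mcpt8, Cma1 and Fcer1a at 0 in the controls and Ms4a2 at 0 in the Stat3-deleted livers. Of the 9, Kit and Hdc passed the filter on low counts. They stood at 9.14 and 8.84 CPM in tumour-bearing WT livers, against a mean sum of 18.6. Hdc was higher in Stat3-deleted than in control livers (1.01, SE 0.23, adjusted p = 0.0164), where 4.85% of all genes passed. This was the 1 call of the 2 genes over the 3 comparisons. The part of these leukocytes was not tested.

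Among markers of ductal and tumour epithelium, Sox9, a transcription factor of bile duct cells, rose by 1.31 (SE 0.24, adjusted p = 0.00276) in tumour-bearing WT livers and fell by 1.35 (SE 0.24, adjusted p = 0.000883) in Stat3-deleted livers. In the lower label-number run Sox9 was at 0.72 (adjusted p = 0.628). Spp1, osteopontin, was at 1.29 (SE 0.37, adjusted p = 0.0659) and fell by 2.06 (SE 0.38, adjusted p = 0.00139). These were the 2 of 6 tested genes of the list that passed in either comparison. Of all genes 2.25% passed in the first and 6.12% in the second. Of the 6, 5 were above 0 in the first comparison and 5 below 0 in the second. Cdh1 went the other way in both, at −0.79 (SE 0.26, adjusted p = 0.125) and 0.46 (SE 0.26, adjusted p = 0.356). In the first, Spp1 did pass in DESeq2 (adjusted p = 0.0163) and with tumour-bearing WT replicate 1, 2 or 5 left out (0.0198 to 0.0379). The summed CPM of all 8 ductal markers ran from 99.3 to 155 over the controls, 86.4 to 231 over tumour-bearing WT and 74.9 to 151 over Stat3-deleted livers. Cdh1 alone stood at 85.3, 49.3 and 67.7 CPM in these groups, against mean sums of 129, 148 and 110. The part of ductal and tumour epithelial cells in the Prtn3 difference was not tested.

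The genes beside Prtn3 on the chromosome were measured in the same way. Within 100 kb of Prtn3 the annotation holds 21 other genes, of which 16 are in the table and 6 passed the filter on low counts (Ptbp1, Cfd, Med16, R3hdm4, Arid3a and Wdr18). None of the 6 passed in edgeR, while 2.25%, 6.12% and 4.85% of all genes did in the 3 comparisons. In tumour-bearing WT against control livers 2 had an unadjusted p under 0.05 and DESeq2 called 1, Arid3a, and their log2 fold changes ran from −0.083 to 1.03. In Stat3-deleted against tumour-bearing WT livers 1 had an unadjusted p under 0.05, DESeq2 called 0, and the values ran from −0.85 to 0.15. Arid3a, a DNA-binding protein gene that starts 47.4 kb downstream, was farthest from 0 in both, at 1.03 (SE 0.30, adjusted p = 0.0713) and −0.85 (SE 0.29, adjusted p = 0.0942). It passed without tumour-bearing WT replicate 5 (adjusted p = 0.0353 and 0.0451). Cfd, the complement serine protease adipsin, which lies next to Elane, varied so much among livers (23.2 ± 29.1 CPM in tumour-bearing WT) that its log2 fold change of 1.02 had an SE of 0.98.

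**Figure D4:**
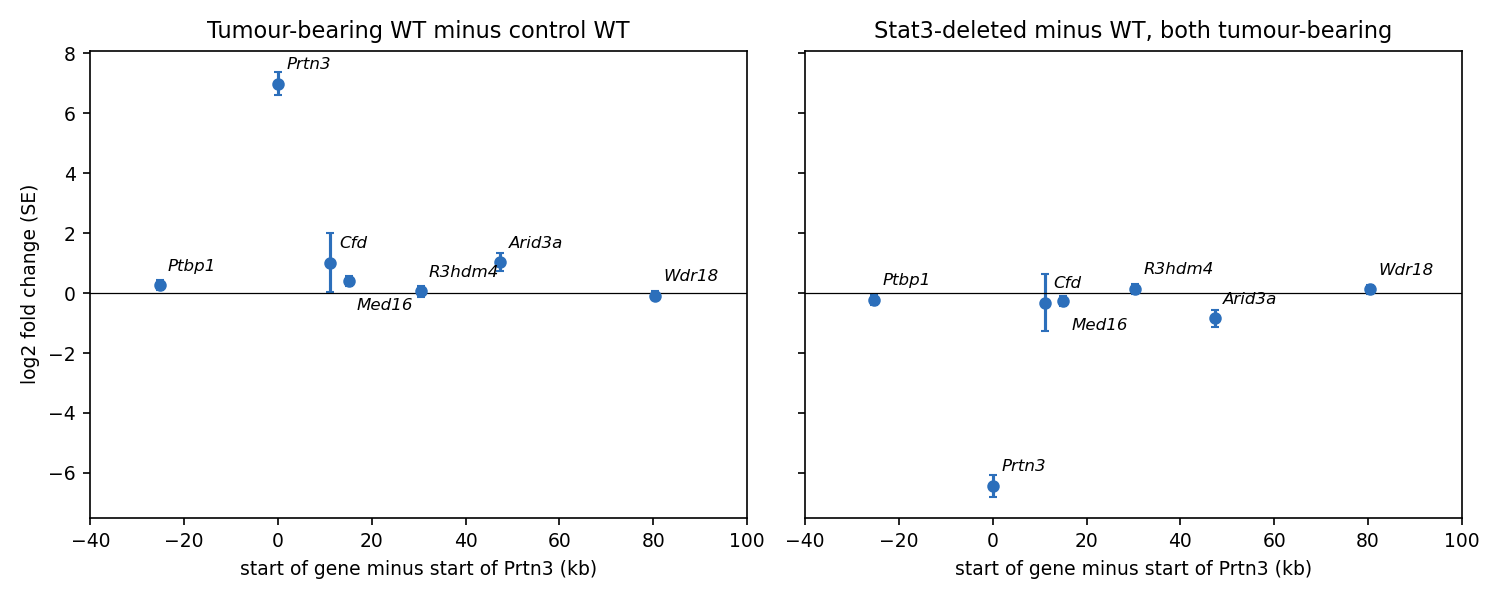
Log2 fold change with SE bars (y axis) of the tested genes within 100 kb of Prtn3, by the distance of their start from that of Prtn3 (x axis, kb), in tumour-bearing WT against control (left) and Stat3-deleted against tumour-bearing WT livers (right). Prtn3 lies at 6.99 and −6.43, and the 6 neighbours lie between −0.85 and 1.03.

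The 10 genes whose profile over the 18 libraries was most like that of Prtn3 were taken. Likeness was the root mean square difference of log2 CPM profiles set to mean 0 and SD 1, whose median over all 11217 other genes was 1.41. The nearest was Orm2, an orosomucoid gene, at 0.287, followed by Lcn2 at 0.347, Isyna1, the rate-limiting enzyme of inositol synthesis, at 0.375, the fibrinogen chains Fga at 0.379 and Fgb at 0.384, the inter-alpha-trypsin inhibitor chain Itih4 at 0.389, the ribonuclease Ang at 0.393, Stat3 at 0.395, the co-chaperone Dnajc12 at 0.407 and the haem-binding protein Hpx at 0.416. All 10 share the 18 libraries with Prtn3, and Prtn3 was chosen for its difference between these groups.

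The sizes of their differences varied. Orm2 was at 5.04 ± 1.51 CPM in control, 359 ± 289 in tumour-bearing WT livers and 3.60 ± 1.68 in those with Stat3 deleted, log2 fold changes of 6.16 (SE 0.53) and −6.63 (SE 0.55), the first at 5.38 in the lower and 6.79 in the higher label-number run. Dnajc12 was at 9.56 ± 2.96, 94.2 ± 55.3 and 9.10 ± 2.39 CPM, with 3.30 (SE 0.33) and −3.37 (SE 0.33), and Isyna1 at 17.4 ± 7.59, 171 ± 130 and 28.7 ± 6.16 CPM, with 3.30 (SE 0.39) and −2.58 (SE 0.37). Fga was at 2153 ± 229, 6591 ± 2449 and 2177 ± 178 CPM, with 1.61 (SE 0.19) and −1.60 (SE 0.19). Saa1 came at place 18. Among genes of the granulocyte lists the place was 2 for Lcn2, which hepatocytes also make, 21 for S100a9, 41 for S100a8, 66 for Retnlg, 245 for Mmp9 and 313 for Ngp. For the partner gene Ctsc it was 190.

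Within a group, the livers were compared for Prtn3 against Saa1, Lcn2, S100a8 and S100a9 on log2 CPM, 12 relations over 6 livers each. The groups form separate clusters, so no correlation was pooled over them. The pairs with Saa1 and Lcn2 were picked together with the 4 genes, and their p-values are no independent support. In tumour-bearing WT livers, Prtn3 and Saa1 had a Pearson r of 0.73 (exact two-sided permutation p = 0.103) and a Spearman rho of 0.83 (exact p = 0.0583), and Prtn3 and Lcn2 an r of 0.80 (exact p = 0.0722) and a rho of 0.77 (exact p = 0.103). For S100a8 the values were r 0.85 (exact p = 0.0417) and rho 0.77 (exact p = 0.103), and for S100a9 r 0.82 (exact p = 0.0528) and rho 0.60 (exact p = 0.242). Without the 2 livers farthest from the median of the other gene, r was 0.57, 0.94, 0.85 and 0.74 for the 4 genes in that order.

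No relation passed after Benjamini-Hochberg adjustment over the 12, the lowest adjusted p being 0.158 for Pearson and 0.2 for Spearman (exact permutation tests). In control livers r was 0.56 (exact p = 0.250) with Saa1, 0.85 (exact p = 0.0458) with Lcn2, 0.73 (exact p = 0.110) with S100a8 and 0.85 (exact p = 0.0347) with S100a9, on Prtn3 counts of 0 to 9, and rho was 0.60 (exact p = 0.242), 0.77 (exact p = 0.103), 0.66 (exact p = 0.175) and 0.94 (exact p = 0.0167). Without the 2 farthest livers these r were 0.85, 0.24, 0.37 and 0.88, so the values for Lcn2 and S100a8 rest on those livers. In Stat3-deleted livers, on 5 to 10 Prtn3 counts, r was 0.092, −0.16, 0.051 and −0.12 (exact p = 0.899, 0.763, 0.904 and 0.897) and rho 0.086, −0.20, 0.14 and −0.029 (exact p = 0.919, 0.714, 0.803 and 1). Without the 2 farthest livers these r were 0.999, 0.32, −0.48 and −0.49 over 4 livers, so each of them turns on which livers are included. Each label-number run holds 3 livers per WT group, too few for a correlation. The means of the runs differed little for Prtn3 in tumour-bearing WT livers, 83.9 ± 50.2 and 86.8 ± 23.5 CPM (n = 3 each), against 9445 ± 5385 and 27134 ± 19282 CPM for Saa1.

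**Figure D5:**
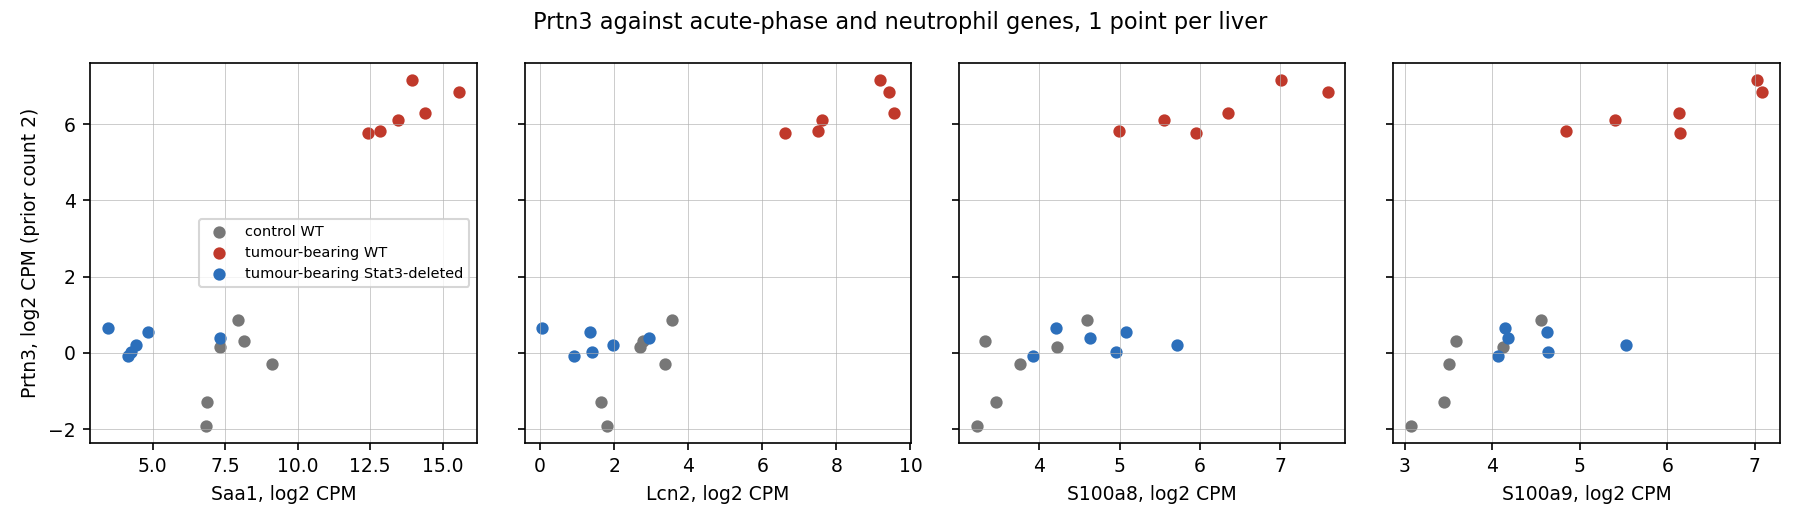
Log2 CPM (prior count 2) of Prtn3 (y axis) against that of Saa1, Lcn2, S100a8 and S100a9 (x axes), 1 point per liver, coloured by group. The tumour-bearing WT livers form a cluster apart from the others, within which r was 0.73, 0.80, 0.85 and 0.82, and the control and Stat3-deleted livers lie at low Prtn3 levels.

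Among the tumour-bearing WT livers Prtn3 spread less than the genes it was set against. The highest liver had 2.64 times the level of the lowest for Prtn3, 8.84 times for Saa1, 7.61 times for Lcn2, 6.09 times for S100a8 and 4.75 times for S100a9. Replicate 3 was highest for Prtn3, replicate 4 for Saa1, S100a8 and S100a9, and replicate 6 for Lcn2. Replicates 1 and 2 were the lowest pair for Prtn3, Saa1 and Lcn2.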

How the data were processed

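The authors deposited raw counts per gene symbol for 18 livers, not normalized, from Quantseq 3′ FWD libraries. Reads were aligned with STAR to mm10, per the submitters' processing notes; the counting tool, annotation and use of strand were not given in the sources used here. Of 24421 symbols, 27 had become date numbers (0.103 to 0.166% of the counts) and were left out. In edgeR 4.0.16 (R 4.3.3), TMM, filterByExpr (11218 genes kept) and a quasi-likelihood fit over all 18 libraries, with 1 coefficient per group, were used. Tests were two-sided, with Benjamini-Hochberg adjustment over the 11218 genes and a threshold of 0.05. SE are of the log2 fold change.

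The 4 genes and the lists were chosen with earlier results of these data known. Named list genes were those with the smallest adjusted p or highest CPM, up to 4 a list; others named (low genes by counts) were chosen after their values were seen. Nothing says whether livers of a group were processed apart, so p-values measure the spread between these libraries. Whether same-numbered livers were handled as pairs was not stated either, and the fit did not pair them.

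The alternatives tried were DESeq2 1.42.0, library totals, RLE size factors, no filter, a filter of 1 CPM in 6 libraries, the groups of a comparison alone, replicate or run blocks, another prior count or linear CPM for correlations, and leaving out each library. Fits within each label-number run and summed count ratios with 1 liver left out were added after seeing the data. Tested on simulated data, the procedure recovered 71 of 100 genes changed 2-fold and 98 of 100 changed 4-fold in the first comparison, with 12 unchanged genes called among 11094 tested. In the second it recovered 63 and 99, with 2 called among 11117. The simulation gave all genes 1 common biological coefficient of variation, 0.281. Recovery and false calls for genes that vary more between livers were therefore not tested. Promoters and positions came from RefSeq. Python 3.11.15 with pandas 2.3.3, scipy 1.17.1 and matplotlib 3.10.9 was used.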

Additional observations from a re-analysis of the deposited data

Results flagged for a closer look

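In 4 of 24 groups of 6 livers checked, 1 liver stood far from the others. A chance rate of about 1 in 20 groups assumes normally distributed values, which was not tested here. That rate does not hold for counts near 0, as those of Mpo and Ctsg. Where all other livers are at 0, any count in 1 liver is flagged, and a group with all livers at 0 cannot be flagged. Mpo was at 1.41 CPM (10 counts) in control replicate 2 and at 0 in the other controls. Ctsg was at 0.454 CPM (3 counts) in tumour-bearing WT replicate 6 and at 0 to 0.155 CPM in the others. Saa1 was at 161 CPM in Stat3-deleted replicate 4 and at 10.7 to 28.3 CPM in the others of that group. S100a9 was at 45.8 CPM in Stat3-deleted replicate 5 and at 16.5 to 24.6 CPM in the others.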

How the results depend on the processing

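The log2 fold change of Prtn3 kept its direction in every alternative run, from 6.65 to 7.37 in tumour-bearing WT against control livers, from −6.53 to −6.22 in Stat3-deleted against tumour-bearing WT, and from 0.28 to 0.92 in Stat3-deleted against control livers. In the last comparison Prtn3 did not pass the filter when the 2 groups were fitted alone, so that setting gives no value. The count of all called genes moved more. Of 252 called between tumour-bearing WT and control livers, there were 462 in DESeq2, 128 with the 2 groups alone, 126 when the label-number run was a block, 38 in the lower and 50 in the higher run, and 132 (without tumour-bearing WT replicate 3) to 462 (without its replicate 1) when 1 library was left out. Of 544 called between Stat3-deleted and control livers, there were 860 in DESeq2, 894 with the 2 groups alone, and 258 to 783 with 1 library left out. The 686 called between Stat3-deleted and tumour-bearing WT livers became 469 to 906. The cause was not tested.

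Whether same-numbered livers were handled as pairs was not stated. Across the WT groups same-numbered livers carry adjacent or close label numbers. Deviations of same-numbered livers correlated at −0.126 to 0.309 over the 3 comparisons, which cannot show that the livers were unpaired. With the replicate block 219, 710 and 570 genes were called in the 3 comparisons, and Ngp (adjusted p = 0.0529) and Alox5ap (0.0734) lost their calls in the first, while Mmp9 (0.0361) and Spi1 (0.0456) gained one. With library totals alone the median of all genes moved by −0.19 in the first comparison and the share of higher genes among those called from 78.2% to 39.4%. That share went from 47.2% to 61.1% in the second comparison and from 45.2% to 27.2% in the third.

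Within the label-number runs 45 of 46 named genes in the lower and 46 of 46 in the higher run kept their sign; Med16 was at −0.0724 in the lower. Specific granule genes called within the runs numbered 1 and 1, mature neutrophil genes 0 and 2, and inhibitors 1 and 2. Correlations in Stat3-deleted livers changed sign: Lcn2 to 0.32 without the 2 farthest livers (Saa1 kept its sign, from 0.092 to 0.999), and S100a8 to −0.0489 with library totals, −0.0677 with linear CPM and −0.48 without those livers. The ratio of Ctsg means in tumour-bearing WT and control livers, 1.22 on the log2 scale, ran from 0.073 to 2.11 with 1 library left out. At this depth Elane, Mpo and Ctsg lie within a few counts of 0 in most livers.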
